A study of Mus musculus with 2 samples.

Results

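Deep intronic CHOP peaks are the peaks of the CHOP list whose summit lay inside a protein-coding transcript, in no exon of such transcripts, and more than 10 kb from the nearest protein-coding start (mm10, GENCODE M21). They were 2252 of 14157 peaks, in 1620 genes. The peaks came from chromatin immunoprecipitation and sequencing (ChIP-seq) of CHOP in the liver of wild-type (WT) mice injected intraperitoneally with tunicamycin at 1 mg/kg and taken at 8 h. Tunicamycin blocks N-linked glycosylation and so disturbs protein folding in the endoplasmic reticulum (ER). The immunoprecipitate was a single library made from chromatin combined across 3 mice, and 1 input library of the same tissue and treatment is also listed. With no replicate, no untreated liver and no CHOP-deficient liver, intervals below cover counting error across the peaks of this list and say nothing of variation between animals. No RNA levels were used here, so the liver label was not checked against markers of its cells.

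CHOP, the product of Ddit3, is a basic leucine zipper (bZIP) protein of the C/EBP family that is made when the ER is under stress. It binds DNA as a dimer with other bZIP proteins, such as C/EBPβ and ATF4. The C/EBP-ATF composite element joins a half-site of a CRE, which ATF proteins bind, to a half-site of a C/EBP element, and is known from stress-induced genes. Introns far from a start often hold enhancers, which act on promoters at a distance, and they also hold many copies of interspersed repeats.

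A minority of members, 127 of 2252 (5.64%), held the exact C/EBP-ATF element near the summit, and the windows below were picked to show it in its sequence context. The 8 windows that follow hold the exact C/EBP-ATF element, in capitals, read on either strand. The first 6 are from the members of highest fold with that element outside the family and compact classes (defined further on). The last 2 are from genes of the stress and NRF2 lists. An AP-1 element is also in capitals in Dpf3. Each window runs from 50 bp before to 50 bp after the summit in mm10.
Fto, chr8:91561448-91561548, plus strand: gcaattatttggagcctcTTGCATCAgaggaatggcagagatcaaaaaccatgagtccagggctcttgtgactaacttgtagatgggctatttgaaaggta
Ubn2, chr6:38456547-38456647, plus strand: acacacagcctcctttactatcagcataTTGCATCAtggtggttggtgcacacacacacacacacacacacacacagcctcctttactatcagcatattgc
Irak2, chr6:113680073-113680173, plus strand: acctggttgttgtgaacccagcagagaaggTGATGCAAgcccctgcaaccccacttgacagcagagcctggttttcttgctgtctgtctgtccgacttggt
Ide, chr19:37278930-37279030, plus strand: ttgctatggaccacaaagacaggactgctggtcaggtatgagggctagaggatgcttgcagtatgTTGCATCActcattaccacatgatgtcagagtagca
Dpf3, chr12:83329056-83329156, plus strand: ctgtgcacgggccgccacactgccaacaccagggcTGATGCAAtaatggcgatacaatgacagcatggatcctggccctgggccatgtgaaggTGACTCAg
Unc5b, chr10:60791055-60791155, plus strand: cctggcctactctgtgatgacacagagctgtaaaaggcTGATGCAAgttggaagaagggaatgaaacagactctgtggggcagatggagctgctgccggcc
Ern1, chr11:106439043-106439143, plus strand: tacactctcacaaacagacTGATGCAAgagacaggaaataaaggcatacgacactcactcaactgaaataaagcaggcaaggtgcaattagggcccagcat
Nfe2l2, chr2:75685656-75685756, plus strand: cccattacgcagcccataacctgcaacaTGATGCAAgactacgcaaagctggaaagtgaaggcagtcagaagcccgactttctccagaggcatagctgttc

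The exact element was read as TTGCATCA in Fto, Ubn2 and Ide, which is TGATGCAA on the opposite strand. Hnf4a, from the list of hepatocyte transcription factors, carried the related C/EBP-CHOP element TGCAATCC, read as GGATTGCA on the opposite strand, in capitals below together with an AP-1 element.
Hnf4a, chr2:163535311-163535411, plus strand: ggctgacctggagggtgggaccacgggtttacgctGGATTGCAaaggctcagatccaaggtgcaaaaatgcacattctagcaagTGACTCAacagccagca

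Peak strength was read from the authors' fold enrichment, the reads piled up at the summit set over a background estimate. Both terms have 1 added before the ratio is taken. The sources used here do not say whether that background was taken from the input library or from the immunoprecipitate itself. The median fold over members was 6.75 (range 3.20 to 158). The pileup behind it was small, with a median of 9 reads (4 to 210), beside 11 over all peaks. In 1374 members (61.0%) the pileup was at most 10 reads, beside 45.8% of all peaks. In 57.0% of members the background was the genome-wide value, which is below 1 read, beside 29.5% of all peaks. The median fold of members was the same as that of all peaks, 6.75. A fold of at least 20 was reached by 155 members (6.88%), beside 6.01% of all peaks. That share was 1.26 percentage points below that of intronic peaks 1 to 10 kb from a start (95% Newcombe interval -3.16 to 0.515) and 0.528 points below that of intergenic peaks over 10 kb from a start (-1.90 to 0.889), and neither interval excludes 0. At a fold of at least 10 members were 3.89 points below the nearer intronic peaks (-6.97 to -0.871) and 2.78 points above the intergenic ones (0.491 to 5.09). Without the family and compact peaks described next, both intervals include 0 (-2.98 points, -6.26 to 0.183, and 1.25 points, -1.15 to 3.70). In that remainder a fold of at least 20 was reached by 2.89% of members, beside 3.96% of all peaks, and the median fold was 6.0 beside 6.45. Against peaks within 1 kb of a start, the difference at that fold went from 2.54 points (1.43 to 3.76) to -1.68 (-2.64 to -0.553). Beside the limit, the 2 members nearest to it were in Lrch1 (6.0-fold) and Greb1l (4.50-fold), and the 2 peaks just outside were in Erc1 (9.0-fold) and 2900026A02Rik (5.25-fold).

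Of the 155 members with a fold of at least 20, 114 were in a class set by shared sequence, in a class set by width, or in both. The summit windows of 492 members (21.8%, 95% Wilson interval 20.2 to 23.6) belonged to a sequence family, that is, they aligned to the windows of 20 or more other peaks at 80% identity over 50 bp. In 534 members (23.7%) the peak was 290 to 340 bp wide, and 195 members were both. These compact peaks held 110 of the 155 members with a fold of at least 20, and in 86.3% of them the summit lay within 15 bp of the centre, beside 28.8% of the 1421 members that were in neither class. The median fold was 12.5 (11.2 to 15, exact order-statistic 95% interval) in the 195 members of both classes, 10.4 (9.75 to 10.7) in the 339 compact members of no family, and 6.0 (6.0 to 6.32) in the members of neither class. Windows were mostly repeat-masked in 90.4% of family members but in 26.5% of compact members of no family, beside 15.1% in neither class. Of all deep intronic bases 29.2% are masked. The classes were defined with results of this list known, and what made these peaks was not tested. Intronic peaks near a start had a similar share in either class, 34.8% against 36.9% of members (difference 2.13 points, -1.17 to 5.39). Distal intergenic peaks had 37.1%, and promoter peaks within 1 kb of a start had 12.2%. The median fold of family peaks was higher in intronic peaks near a start, at 9.06 (8.31 to 10.2), than in members, at 7.50 (6.82 to 7.91).

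**Figure D1:**
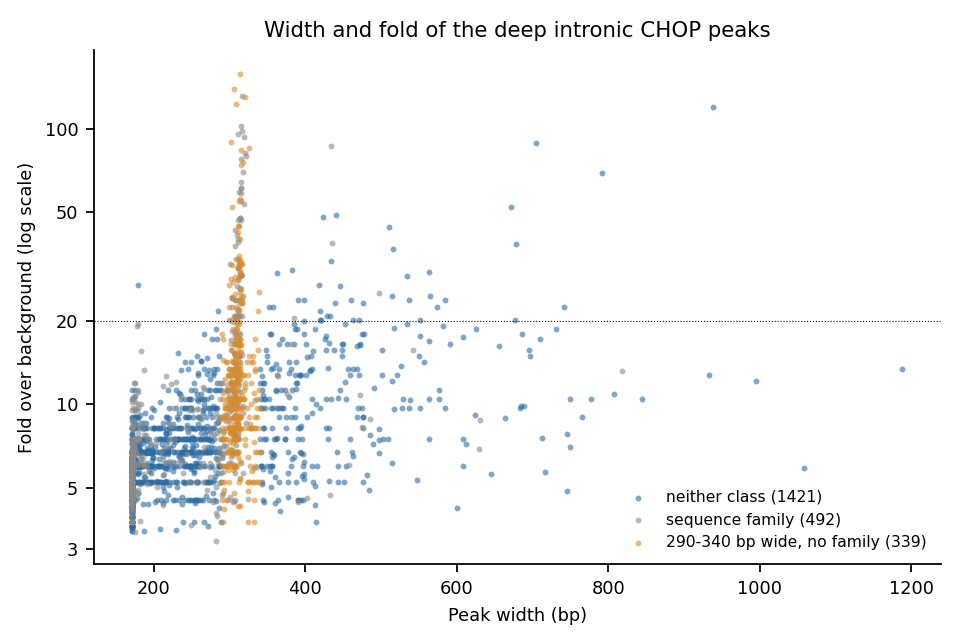
Each point is 1 deep intronic peak, by its width in bp and the authors' fold on a log scale, coloured by class (family, 290 to 340 bp wide with no family, or neither). Above a fold of 20, marked by the dotted line, 110 of 155 peaks stand in the narrow column of 290 to 340 bp, and 41 of the rest are in neither class.

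Among the 15 members of highest fold outside a family, 12 were compact. Dgki, a diacylglycerol kinase gene, had the highest (158-fold, 210 reads, counting interval 138 to 181), followed by Hapln1, a cartilage link protein gene (139-fold, 184 reads), Fut8, the core fucosyltransferase gene (130-fold, 173 reads), and Jph1 (123-fold, 163 reads). Kcnq1, a potassium channel gene (84.7-fold), Notch2, a receptor gene (55.5-fold), and Slc44a1, a choline transporter gene (54.7-fold), were also compact, as were the peaks in D430042O09Rik (89.2-fold), Plxdc1 (83.9-fold), Dscam (75.7-fold), Tanc2 (73.5-fold) and AW554918 (52.0-fold). The 5 highest in a family were in Ybx3 (132-fold), Abca17 (102-fold), Aldh7a1 (98.2-fold), Plxdc2 (95.2-fold) and Sepsecs (93.0-fold), all 312 to 319 bp wide. None of the 64 family members with a fold of at least 20 held the exact C/EBP-ATF element (95% Wilson upper bound 5.66%).

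The 3 highest peaks of neither class were wider, at 705 to 938 bp. The peak in an intron of Gm42906 (119-fold, 205 reads, 938 bp wide) was CpG-rich and lay 139 bp from the start of a non-coding gene. It was followed by Bri3bp (88.5-fold, 127 reads, 705 bp), Naip2, an inflammasome receptor gene (69.2-fold, 123 reads, 792 bp), and Fto, the RNA demethylase gene, with 51.8-fold (85 reads) 171 kb from a start and 38.2-fold (50 reads) at 13.4 kb. Then came Ubn2 (48.5-fold), Ppp2r5e, a subunit of protein phosphatase 2A (48.0-fold), Ano2 (44.0-fold), Tenm3 (36.7-fold) and Foxo1 (33.0-fold). Others included Myh9 (30.7-fold), the zinc transporter gene Slc39a14 (30.0-fold), Irak2, a kinase of Toll-like receptor signalling (26.9-fold), and Ide, the insulin-degrading enzyme gene (24.7-fold). These were chosen after their values were seen. Of the 41 members of neither class with a fold of at least 20, 5 held the exact element (12.2%, 5.32 to 25.5) and 14 its loose form.

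The exact C/EBP-ATF element (TGATGCAA, either strand) was the leading 8-base word at summits of neither class. It was in 105 of 1421 summit windows (7.39%, 6.14 to 8.87) and in 0.281% of the 2842 windows of equal length centred 500 bp to each side, a difference of 7.11 points (5.83 to 8.59). Over all members it was in 127 windows (5.64% against 0.244% of flanks), and over all 14157 peaks in 2.99% of windows. Some 1-base variants of it were also more frequent at summits than in flanks: TGATGAAA was in 5.07% of summits against 0.281% of flanks, TGATGTAA in 3.10% against 0.387%, and TGTTGCAA in 2.46% against 0.211%. The variant TGATGGAA did not share this, with 0.633% at summits and 0.774% in flanks (difference -0.141 points, -0.637 to 0.483). The base after the exact element was T, G or C in 40, 34 and 27 windows, and A in 4. Matches lay close to the summit: among the 151 members of neither class with a match within 100 bp, the median distance was 25 bp, and 107 were within 50 bp.

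**Figure D2:**
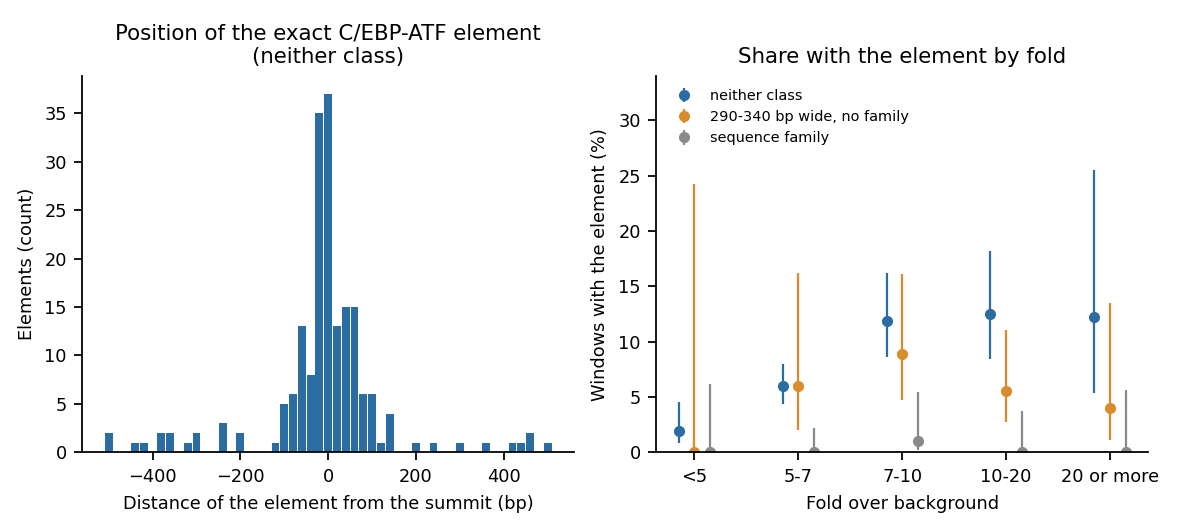
On the left, the number of exact C/EBP-ATF elements by distance from the summit in 20 bp bins, for the 1421 members of neither class. On the right, the share of windows with the element (with 95% Wilson intervals) by the authors' fold and class: it is 1.97% below a fold of 5 and 12.5% from 10 to 20 in neither class, and 0 or 1.00% in every fold group of the sequence family.

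The share with the exact element went up with fold in members of neither class, from 1.97% (0.844 to 4.52) below a fold of 5 to 5.95% (4.4 to 8.0) at 5 to 7, 11.9% (8.58 to 16.2) at 7 to 10 and 12.5% (8.40 to 18.2) at 10 to 20. The first and the last of these intervals do not overlap. By pileup, the share was 4.02% (2.49 to 6.43) at 4 to 6 reads and 13.7% (8.36 to 21.7) at 21 reads or more. Members of neither class with the element had a median fold of 7.50 (6.75 to 8.25), against 6.0 (6.0 to 6.16) without it. Compact members of no family held the element in 21 of 339 windows (6.19%), and their difference from neither class had an interval that includes 0 (1.19 points, -2.14 to 3.77). In the family it was in 1 of 492 windows (0.203%), the level of its flanks, and the difference from neither class was 7.19 points (5.62 to 8.67).

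Other bZIP patterns were counted in the same windows. The loose form TGANGNAA, which includes the exact one, was in 22.1% of neither-class summits against 6.40% of flanks, and in 10.5% of windows over all peaks. The C/EBP element TTGCNNAA was in 6.83% against 4.22% (4.44% of all peaks), the AP-1 element TGANTCA in 4.29% against 2.36% (2.68% of all peaks), the C/EBP-CHOP element TGCAATCC in 1.76% against 0.387% (1.14%), and the hybrid TGACGCAA in 0.633% against 0.0704% (0.615%), each with an interval of the difference above 0. Over all members the AP-1 difference was 1.13 points (0.251 to 2.11), and its interval includes 0 with a limit of 20 kb (0.913 points, -0.0965 to 2.05), with 25 bp to each side (0.533, -0.0364 to 1.2) and with flanks 1 kb away (0.733, -0.168 to 1.72). The full CRE TGACGTCA and the C/EBP palindrome TTGCGCAA were each in 1 member, and in 0.516% and 0.134% of all peaks. At least 1 of the 8 bZIP patterns searched, overlaps included, was in 26.3% of all members (12.7% of flanks) and in 31.9% of neither class (12.5% of flanks).

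Elements of liver factors showed smaller differences than the exact C/EBP-ATF element, or none that could be told from the flanks. The HNF4 pattern CAAAGTCCA was in 8 members of neither class (0.563% against 0.141%, difference 0.422 points, 0.0678 to 0.973), and in 0.184% of all peaks. The FOXA pattern TGTTTAC was in 2.04% against 1.76% (0.281 points, -0.546 to 1.25; 1.12% of all peaks) and the NFI half-site TTGGCA in 7.04% against 5.49% (1.55 points, 0.0349 to 3.19; 4.26% of all peaks). The E-box CACGTG, bound by clock and MYC-type factors, was in 1.9% against 1.58% (0.317 points, -0.476 to 1.26; 3.37% of all peaks). The GC box GGGGCGGGG was in 0.915% against 0.246% (4.58% of all peaks).

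**Figure D3:**
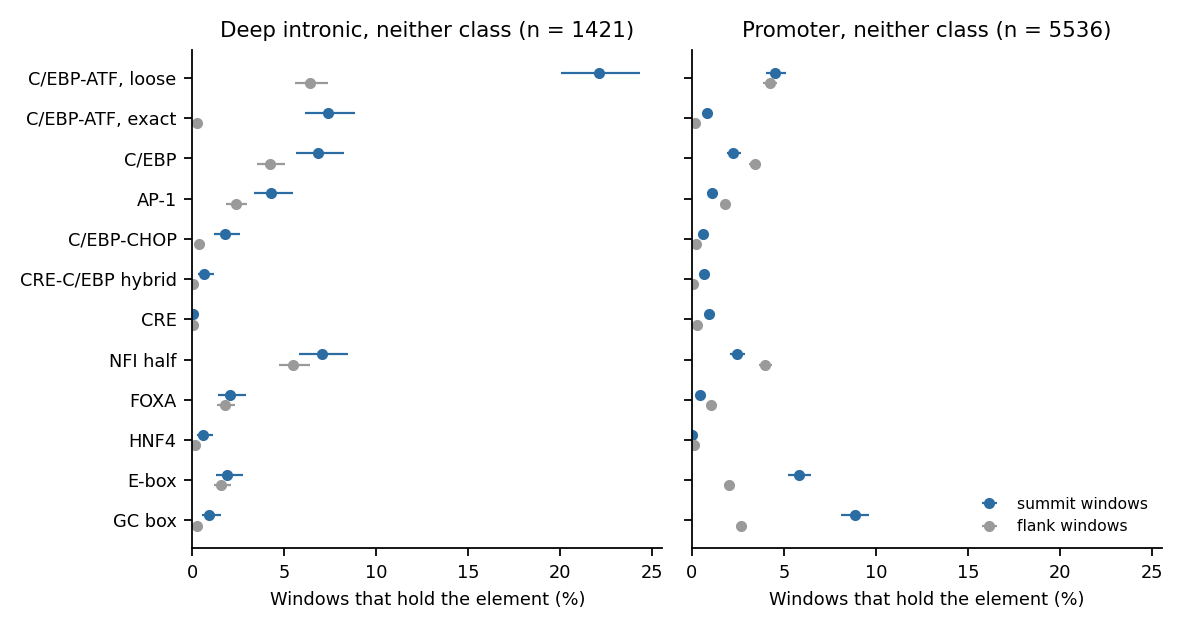
Share of windows that hold each element, at the summit (blue) and in flanks 500 bp away (grey), with 95% Wilson intervals, for members of neither class on the left and promoter peaks of neither class on the right. The C/EBP-ATF element leads at deep intronic summits (7.39% exact, 22.1% loose), and the GC box (8.83%) and the E-box (5.82%) lead at promoters.

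Against other positions, members differed most from promoter peaks. The exact element was 6.56 points (5.28 to 8.05) more frequent in neither-class members than in neither-class promoter peaks (0.831%). The GC box was 7.92 points (6.95 to 8.78) and the E-box 3.92 points (2.88 to 4.79) less frequent. Between members and intronic peaks 1 to 10 kb from a start the exact element differed by 1.63 points, with an interval that includes 0 (-0.559 to 3.65). Against intergenic peaks over 10 kb from a start it was 1.88 points (0.218 to 3.63) higher in members, and in all peaks of both kinds 1.69 points (0.543 to 2.90) higher. The distal intergenic peaks were more often repeat-masked over most of the window, with 19.5% against 15.1% in neither class, and the part of this in the difference was not tested. In neither class the C/EBP element TTGCNNAA was in 6.83% of members, below the 9.36% of the nearer intronic peaks (-2.54 points, -5.02 to -0.241). Intergenic peaks had it in 8.47% (-1.64 points, -3.42 to 0.198). The AP-1 shares were 4.29% in members, 4.20% and 4.90%, and both intervals of the difference include 0.

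Members thinned out with distance from a start. Intronic sequence held 5.84 peaks per Mb (exact Poisson 95% interval 5.53 to 6.17) at 1 to 10 kb. It held 4.58 (4.24 to 4.94) at 10 to 20 kb, 3.80 (3.54 to 4.07) at 20 to 50 kb, 2.89 (2.62 to 3.19) at 50 to 100 kb, 2.34 (2.06 to 2.65) at 100 to 200 kb and 1.42 (1.18 to 1.69) beyond 200 kb. Neighbouring intervals do not overlap, except those at 50 to 100 and 100 to 200 kb. The order was the same in neither class, from 2.86 (2.59 to 3.15) at 10 to 20 kb to 0.809 (0.629 to 1.02) beyond 200 kb. The share with the exact element did not follow it, with 8.67% (6.33 to 11.8) at 10 to 20 kb and 5.80% (2.28 to 14.0) beyond 200 kb in neither class. The median member lay 32.5 kb from a start, and the farthest 1071 kb. Over the whole class the density was 3.26 peaks per Mb of 690.7 Mb of deep intronic sequence, or 0.610 times the share of the genome that such sequence takes.

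**Figure D4:**
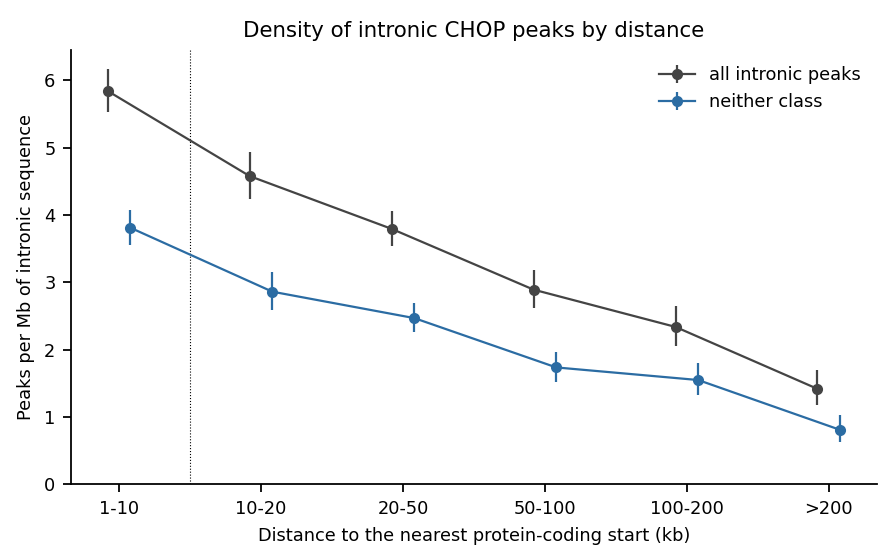
Intronic CHOP peaks per Mb of intronic sequence by distance to the nearest protein-coding start, with exact Poisson 95% intervals, for all peaks and for those of neither class. The density falls from 5.84 to 1.42 per Mb, and the dotted line marks the 10 kb limit.

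The first introns held 557 of the 2226 members that could be placed in the longest transcript (25%, 23.3 to 26.9), against 20.6% of deep intronic bases. Their density was 3.87 per Mb (3.56 to 4.21), above the 2.98 (2.83 to 3.15) in the third and later introns. Chromosomes 11 (4.49 per Mb, 3.81 to 5.27), 19 (4.48, 3.56 to 5.56) and 4 (4.36, 3.72 to 5.07) had the most members per Mb, and chromosome X had 2.35 (1.85 to 2.94). Most members stood alone: 367 (16.3%) had another peak within 10 kb, and the median distance to the next peak was 35.1 kb. The sequence around them was CpG-poor, with a median GC share of 44.5% and 38 members (1.69%) that were CpG-rich, beside 86.6% of promoter peaks. None of the 38 held the exact C/EBP-ATF element, beside 5.64% of all members, and 38 are too few to tell these apart. The start of a non-coding gene lay within 1 kb of 24 members (1.07%, 0.717 to 1.58), and 0.405% of deep intronic bases lie that near to such a start. Starts of transcripts of any biotype other than protein-coding lay within 1 kb of 144 members (6.39%, 5.46 to 7.48), beside 3.75% of deep intronic bases. These members included those in Uggt2 (11 bp away), Mogat1 (41 bp) and Dgat2 (456 bp).

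A gene was called a host if its introns held at least 1 member. Hosts were 1620 of the 11278 protein-coding genes with deep intronic sequence, which is 14.4%, and 1185 of them held 1 member, 301 held 2 and 134 held 3 or more. Hosts more often had a CHOP peak at their own promoter. A summit lay within 1 kb of a start in 48.8% of hosts (46.4 to 51.3) and in 34.5% of the other genes (33.5 to 35.4), a difference of 14.3 points (11.7 to 16.9). Long genes offer more sequence, so genes were split by deep intronic length into 4 classes of equal size: the difference was 8.54 points in the shortest (-6.28 to 25.5, 33 hosts), 12.2 (4.90 to 19.6) in the second, 10.9 (5.63 to 16.1) in the third and 13 (9.21 to 16.8) in the longest. Counting members of neither class only, it was 16.3 points (13.2 to 19.3).

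The genes with the most members were long. Gm20388, a predicted gene with 2875 kb of deep intronic sequence, held 16, between 4.71-fold and 32.2-fold. All 16 lie in 1 intron of 4384 kb that spans other genes, and the starts nearest to them are those of Galnt2, Gse1, Klhdc4, Zcchc14 and others. Ptprg, a receptor tyrosine phosphatase gene, held 13 in 650.3 kb, or 20 per Mb, against 3.26 over all genes. The Ptprg peaks ran from 3.75-fold (4 reads) to 25.4-fold (53 reads, in a family), and the highest outside a family was 17.2-fold (22 reads, 11.1 to 25.7). Rora, the retinoic acid receptor-related orphan receptor that feeds into the liver clock, held 9 in 693.8 kb. Fgfr2 held 7 in 2110 kb, of which 3 were of neither class, and Rai14 held 6 in 129.9 kb, all between 4.50-fold and 8.25-fold and 1 with the exact element. The Fgfr2 model also spans other genes, and 30 members lay in 2 genes at once. Rere, Tenm3 and Tns1 also held 6 each.

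Gene lists were compared by the members they held against the number that genes of like deep intronic length (10 classes of length) would hold at their common density. The lists were drawn up with earlier results of this peak list known, so their values are a description. The intervals take each peak as a separate count, also where 1 gene holds several, and are not a test of a list. Lipid metabolism held 16 members in 10 of 30 genes, 3.99 times that number (2.28 to 6.47, exact Poisson), and bile acid and drug metabolism 9 in 8 of 26 genes, 3.19 times (1.46 to 6.05). Stress response genes had a ratio of 2.76 (1.19 to 5.44), hepatocyte transcription factors and nuclear receptors 2.28 (1.53 to 3.28), and glucose and insulin signalling 2.16 (1.12 to 3.77). Neuronal and synaptic genes held 51 members in 26 of 37 genes, but this was 0.547 times the number from their length classes (0.407 to 0.719). Their density was 1.35 per Mb, beside 2.47 in the longest class. That class has a median of 257 kb, and many of these genes are far longer, such as Lsamp with 2139 kb. Length was thus not fully matched for this list, and its part in the ratio was not tested. Intervals of the other lists reported included 1, apart from the circadian list, whose 9 members were all in Rora. In neither class only, the ratio was 3.89 for lipid metabolism, 2.30 for glucose and insulin signalling (0.991 to 4.52, which includes 1) and 0.516 for neuronal genes.

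**Figure D5:**
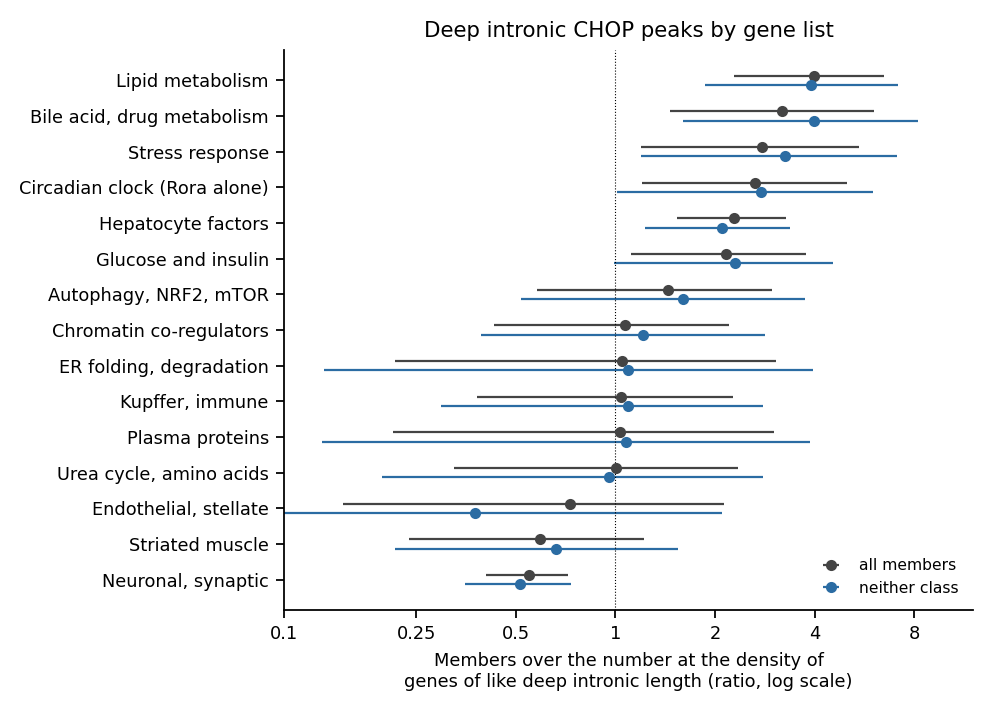
Members in each of the gene lists reported divided by the number at the density of genes of like deep intronic length (log scale, exact Poisson 95% intervals), for all members and for those of neither class. Lipid metabolism is highest at 3.99 and neuronal and synaptic genes lowest at 0.547 over all members.

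Among hepatocyte transcription factors, 14 of 27 genes with deep intronic sequence were hosts (51.9%, beside 14.4% of all such genes, not matched for length). Hnf4a, the nuclear receptor at the centre of the hepatocyte programme, had 1 member of 17.2-fold (22 reads, 11.1 to 25.7), 11.8 kb from the nearest start, whose sequence is printed above. Ppara, the receptor that drives fatty acid oxidation in fasting, had a pair at 8.52-fold (11 reads, in a family) and 8.25-fold (10 reads). Nfia had 4, at 12.7-, 12.0-, 11.2- and 5.65-fold, and Nfib, of the same NFI family, had 4, at 9.75-, 8.89-, 6.0- and 4.68-fold. The Nfib peak of 8.89-fold (12 reads) held the exact element, and it was in a family. Nr5a2, a receptor that controls bile acid genes, had 4 peaks from 5.25-fold to 8.95-fold, and Zhx2 had 1 of 12.1-fold. Prox1 had 1 peak of 6.02-fold (9 reads), in a family. Rxra, with 49.8 kb of deep intronic sequence, and Alb, with 5.0 kb, held none, and Fgf21 has no such sequence.

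In glucose and insulin signalling, 10 of 24 genes were hosts (41.7%, beside 14.4% of all genes with deep intronic sequence). Foxo1 and Foxo3, the forkhead factors that insulin holds out of the nucleus, had the highest peaks of neither class. The Foxo1 peak, in its first intron 72.2 kb from a start, was 33.0-fold (43 reads, 24.1 to 44.2), and the Foxo3 peak was 23.2-fold (30 reads, 15.9 to 32.9). Neither of the 2 windows held any of the bZIP patterns. Insr, the insulin receptor gene, had 3 peaks, at 13.9-fold and 12.7-fold, both compact, and at 7.50-fold (9 reads), the last with the loose C/EBP-ATF form and an AP-1 element. Slc2a2, the hepatic glucose transporter gene, had 1 of 5.58-fold and Pde3b 1 of 9.0-fold, both with the exact element. The Pik3r1 peak (38.5-fold) was in a family.

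The peaks of the 10 lipid hosts ran from 4.50-fold to 11.2-fold. None of their 16 members held the exact C/EBP-ATF element, beside 5.64% of all members, and 16 are too few to tell these apart. Acaca, the acetyl-CoA carboxylase gene of fatty acid synthesis, had 2, at 11.2-fold (14 reads, 6.49 to 18.4) and 9.02-fold. Dgat2, for the last step of triglyceride synthesis, had 1 of 11.2-fold (14 reads) and Mogat1 1 of 10.5-fold (13 reads, compact). Abca1, the cholesterol exporter gene, had 3 (10.5-, 9.75- and 7.50-fold), of which the highest held the C/EBP-CHOP element, and Elovl6, a fatty acid elongase gene, had 3, each of 6.75-fold. In bile acid and drug metabolism the highest were Cyp27a1 (15.4-fold, of the family or compact class), Abcc3 (10.5-fold, 13 reads, compact) and Abcb4 (7.50-fold, 9 reads). Klb, the co-receptor for FGF21, had 1 peak of 6.74-fold (8 reads), and Aox1 had 2, at 5.25-fold and 4.50-fold, of which 1 held the exact element.

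The stress list had 8 members in 5 of 19 genes (26.3% hosts, beside 14.4% of all genes with deep intronic sequence). Ern1, which encodes the ER stress sensor IRE1, had 3 peaks of neither class, at 14.8-fold (19 reads, 9.23 to 22.8), 8.15-fold and 5.25-fold. The highest was in its second intron, 48.7 kb from a start, and its window held the exact element printed above. Atf6, another ER stress sensor gene, had 1 peak of 6.27-fold. Slc7a11, the cystine transporter gene, had 2 (6.94- and 4.39-fold), Ero1l, an ER oxidase gene, had 1 of 7.50-fold (9 reads), and Eif2ak4, which encodes the amino acid sensor GCN2, had 1 of 5.02-fold. In ER folding and degradation 3 of 22 genes were hosts (13.6%, beside 14.4% of all genes with deep intronic sequence). The ratio of this list to genes of like length was 1.04 (0.215 to 3.05). Its peaks were in Uggt2 at 6.19-fold (8 reads), Edem1 at 6.0-fold (7 reads) and Pdia5 at 58.5-fold, the last of the family or compact class.

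Nfe2l2, the gene of the antioxidant regulator NRF2, had 1 peak of 18-fold (23 reads, 11.7 to 26.6) in its first intron, 18.9 kb from a start, with the exact element. The Mtor peak (32.2-fold, 42 reads) was compact. Prkce, a protein kinase C gene, had 5 peaks and the highest was 19.3-fold (31 reads, 13.3 to 27.1), with the loose form. Map3k5, the stress kinase ASK1, had 15.7-fold (20 reads) and Egfr, the epidermal growth factor receptor gene, had 3 peaks with 15.7-fold (20 reads) the highest. Among chromatin co-regulators Arid1b had 4 peaks (18.7-, 12.7-, 6.0- and 5.25-fold), and the highest (24 reads) held the loose form and the hybrid.

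The lists for other liver cells and for muscle had 3 to 7 members each. Kupffer and immune genes had 6 members in 3 of 20 genes (ratio 1.04, 0.381 to 2.26), with Runx1 at 17.7-fold (23 reads) and 4 peaks in Bach2. Endothelial and stellate genes had 3 in 3 of 18 genes (0.727, 0.150 to 2.12), with Pdgfra at 8.60-fold (11 reads). Striated muscle genes had 7 in 5 of 14 genes (0.593, 0.238 to 1.22), with Ldb3 and Myom1 at 9.75-fold (12 reads each) the highest of neither class. In the neuronal list Dscam had the highest peak (75.7-fold, 100 reads, compact), Lsamp had 15-fold (19 reads, compact) and Erbb4 13.5-fold (17 reads). Plasma protein genes had 3 members, in C8a and Itih2, and urea cycle and amino acid genes had 5, all below a fold of 10, with Mat1a at 6.75-fold (8 reads). Cells of the pooled liver cannot be told apart in these data.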

How the data were processed

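Per the labels' protocols, Bowtie mapped the single-end reads to mm10, allowing up to 2 mismatches, and no more than 2 reads were kept at a position and strand. SAMtools 1.9 and Sambamba 0.7.1 filtered the alignments, and MACS2 2.1.2 called the peaks with unchanged parameters. The input library had no separate file used here. Per peak the authors deposited a fold, with −log10 p, −log10 q, a score (10 times −log10 q, unused) and the summit offset. The fold is the ratio of summit pileup to local background after the same addition to both terms that is given in the results.

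The whole-number pileup and the background were solved from the deposited fold and −log10 p under the Poisson model of MACS2 (all 14157 peaks, largest residual 3.13e-05). The sources name no molecular identifiers, and the sources used here give neither library depth nor the Bowtie version. Summits were placed on GENCODE M21 and windows read from GRCm38.p6. Families came from BLAST+ 2.17.0 (word size 11). CpG-rich means a GC share of 55% or more and a CpG ratio of 0.65 or more over 501 bp. Intervals are Wilson, Newcombe, exact Poisson or order-statistic at 95%, counting error only, and no p-value was computed. Python 3.11.15, pandas 2.3.3 and scipy 1.17.1 were used, and the steps were tested on simulated data.

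The members, 16 gene lists (486 entries), 25 motifs, classes and alternatives were chosen with earlier results of these data known. Named genes are the 15 highest members outside a family and 5 in one, up to 3 per list, the 5 genes with most members, 10 set by name (Hnf4a, Ppara, Rxra, Alb, Fgf21, Prox1, Foxo1, Insr, Nfia, Nfib) and those at the limit. Other genes, and the sequences, were chosen after their values were seen. Results of 1 list and some sequences are not reported here. For a name carried by 2 annotated genes, the one with more deep intronic sequence was used.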

Additional observations from a re-analysis of the deposited data

How the results depend on the processing

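The number of members was 775 with a limit of 50 kb, 1499 with starts of any biotype and 1421 without the family and compact classes. The median fold was 8.25 at −log10 q of at least 5, 6.03 without peaks 290 to 340 bp wide and 6.0 without both classes, and by −log10 q in place of fold 47.7% of members, not 53.2%, were at or above the median of all peaks. The summit-minus-flank difference of the exact C/EBP-ATF element, 5.40 points over all members, was 6.90 without family summits, 7.11 without both classes, 7.85 without windows mostly repeat-masked, 3.57 and 7.33 with windows of 25 and 100 bp to each side, and 7.35 in members at or above their median fold. That of the loose form, 11 points, was 14.9, 15.7, 17.2, 7.57, 13 and 14.0 in the same order. That of the C/EBP element, 1.82 points, was 3.76 without mostly masked windows and 3.43 at or above the median fold, and that of AP-1, 1.13 points, was 2.38 with 100 bp to each side, but 0.913, 0.533 and 0.733, with intervals that include 0, with a limit of 20 kb, with 25 bp to each side and with flanks 1 kb away. The family share was 30.1% with 5 other peaks and 26.1% at 70% identity. The share near a non-coding start was 0.577% within 500 bp. Hosts were 507 counting members with a fold of at least 10. None of the summit-minus-flank differences changed sign. Most members were at or above the median of all peaks by fold, but a minority were by −log10 q. The fold share counts members tied at a median that members and all peaks have in common. It therefore does not set members above the list. The difference in promoter peaks between hosts and other genes stayed on its side of 0 in all settings run. Leaving out both classes, or mostly masked windows, was chosen after seeing the data. Of 112 host counts of lists under the alternatives, 81 were within 1.5 times. The cause of these shifts was not tested. No paired analysis was possible because the peaks come from 1 library. Pileups of a median of 9 reads limit every single fold.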
